A study of Mus musculus with 27 samples.

Results

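The 10 genes described here encode membrane proteins of hepatocytes that carry bile acids, other organic anions or membrane lipids. They were chosen by gene symbol (Slc10a1, Slco1a1, Slco1a4, Slco1b2, Abcb11, Abcb4, Abcc2, Atp8b1, Abcc3 and Abcc4), and all 10 were found among the 17655 genes listed in the deposited tables. Whole-liver RNA was sequenced from 27 mice, 3 in each of 9 groups. Every mouse was Kdm5b fl/fl, with both copies of the histone demethylase gene Kdm5b flanked by loxP sites, and every mouse drank alcohol with a Western diet (WDA). Mice given a control AAV8 vector are called WT, although they carried the floxed alleles. Mice given AAV-CMV-Cre are called KO, and the CMV promoter is not restricted to 1 cell type. Mice given AAV-TBG-Cre are called HepKO, since the TBG promoter drives Cre in hepatocytes. The 5 WDA groups (WT and KO mice of each sex, and HepKO females) have a vector and 8 weeks of WDA in their labels, a shorter feeding than the study's methods describe for WDA. The 4 resolution (Res) groups (WT and KO mice of each sex) have 16 weeks of WDA, then the vector and 4 weeks without alcohol in their labels. The labels give no ages. Per the study's methods, mice in resolution were also moved from the Western diet to chow and plain water. Stage, diet, experiment number, length of feeding and timing of the vector therefore coincide, and cannot be told apart in any comparison of Res with WDA.

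Bile acids are made in hepatocytes, secreted into bile, reabsorbed in the intestine and returned to the liver in portal blood. At the sinusoidal face of the hepatocyte, which meets the blood, NTCP (Slc10a1) takes up conjugated bile acids with sodium, and the OATP proteins (Slco1a1, Slco1a4 and Slco1b2) take up bile acids, bilirubin, hormone conjugates and drugs without it. At the canalicular face, BSEP (Abcb11) pumps bile salts into bile, MDR2 (Abcb4) moves phosphatidylcholine into bile, MRP2 (Abcc2) exports conjugated organic anions such as bilirubin glucuronide, and the lipid flippase FIC1 (Atp8b1) keeps the asymmetry of the canalicular membrane. MRP3 (Abcc3) and MRP4 (Abcc4) lie on the blood side and return organic anions and bile acids to the circulation. Mouse liver is known for sex differences in the OATP genes.

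Library totals ranged from 14634602 to 19388251 counts, with a median of 17944536. The values below are CPM, the counts of a gene relative to the library's total after TMM scaling, and FPKM is used where genes are compared with each other, since it is scaled by length. In bulk tissue, fewer cells of a type and less RNA per cell cannot be told apart. Kdm5b, the targeted gene, averaged 26.0 ± 4.94 CPM (SD, n = 3) in WT and 18.1 ± 5.2 in KO females on WDA, and 24.3 ± 0.708 in WT and 21.5 ± 0.788 in KO males on WDA. After resolution it averaged 17.1 ± 0.442 in WT and 12.0 ± 1.26 in KO females, and 19.2 ± 0.451 in WT and 12.6 ± 4.62 in KO males. HepKO females averaged 13.3 ± 4.63 CPM. Each Cre group thus had a lower mean than its control group, but transcript remained in every liver. By the quasi-likelihood test of edgeR, no Cre comparison of Kdm5b passed an adjusted p of 0.05, and over the 24 WT and KO mice its log2 fold change was -0.45 (SE 0.10, adjusted p = 0.109).

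Markers of bile duct and stellate cells set some livers apart from the rest. The 8 cholangiocyte markers (among them Krt19, Krt7, Epcam, Sox9 and Spp1), which label bile duct cells, summed to 16.7 to 35.7 CPM in 20 of the livers. They summed to 538 CPM in KO male 17 on WDA, 471 in WT female 7 on WDA, 239 in WT female 13 after resolution, 199 in KO male 5 after resolution and 158 in WT male 9 after resolution. All 8 markers were above 0 in each of these 5 livers, and 3 of the 8 were above 0 in each of the other 22. By the sum, KO male 18 and WT male 19 on WDA were next, with 107 and 73.6 CPM. The sums were mostly Spp1, so the ranking of livers largely follows that 1 gene. The highest Spp1 level was 479 CPM in KO males and 420 in WT females on WDA. After resolution it was 201 in WT females, 169 in KO males and 129 in WT males. Epcam reached 21.1 CPM in KO males and 19.1 in WT females on WDA. The 8 stellate cell markers, led by the collagen genes, summed to 459 and 402 CPM in KO male 17 and WT female 7, against 68.7 to 176 in the 22 livers outside the 5. The 8 hepatocyte markers, including Alb, were abundant in all 27 livers, with sums of 77700 and 74500 CPM in KO male 17 and WT female 7 and 82500 to 174000 CPM in the 22 livers. Alb alone gave 62186 and 60158 CPM of the sums in male 17 and female 7, so they say little about the other markers. On WDA, Asgr1 ran from 213 to 498 CPM in WT females and from 246 to 480 in KO males. Cps1 ran from 4060 to 5270 CPM and from 3690 to 6310. Macrophage markers summed to 377 and 537 CPM in KO male 17 and WT female 7, within or just above the range of the 22 (142 to 510). That sum does not describe each macrophage marker. On WDA, Gpnmb ran from 2.32 to 253 CPM in WT females and from 2.52 to 154 in KO males. Clec4f ran from 31.3 to 76.9 CPM and from 24.6 to 117 in the same groups. Endothelial markers summed to 178 and 186 CPM in male 17 and female 7 (179 to 345 in the 22). For comparisons that held any of these livers, values without the 2 or the 5 livers with the most cholangiocyte transcripts are given beside many of the transporter results, but not all. They are not given for the genes of the other lists. Leaving these livers out was a choice made after seeing the data.

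The OATP genes lie near each other on chromosome 6 in GRCm38.p6, with Slco1b2 at chr6:141629452-141686646, Slco1a4 at chr6:141805438-141856284 and Slco1a1 at chr6:141907281-141946962. The 250 bases before the start of a RefSeq promoter entry are shown for Slco1a1 and Slco1a4, because these relatives differed between the sexes in opposite directions, and for Abcb11, the bile salt pump. They are from RefSeq (GRCm38.p6), are written 5′ to 3′ on the strand of the gene, and all 3 genes are on the minus strand. The Slco1a4 entry starts inside the gene span given above, so that 64 of the 250 bases shown lie within that span. Capitals mark AGGTCA, a half-site for nuclear receptors, or its reverse complement TGACCT, and no other motif was marked.
Slco1a1 (chr6:141946963-141947212): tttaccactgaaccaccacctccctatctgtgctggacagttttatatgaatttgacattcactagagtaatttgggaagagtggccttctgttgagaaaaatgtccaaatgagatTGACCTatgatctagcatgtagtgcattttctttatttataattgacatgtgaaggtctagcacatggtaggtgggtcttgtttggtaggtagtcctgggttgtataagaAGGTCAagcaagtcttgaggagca
Slco1a4 (chr6:141856221-141856470): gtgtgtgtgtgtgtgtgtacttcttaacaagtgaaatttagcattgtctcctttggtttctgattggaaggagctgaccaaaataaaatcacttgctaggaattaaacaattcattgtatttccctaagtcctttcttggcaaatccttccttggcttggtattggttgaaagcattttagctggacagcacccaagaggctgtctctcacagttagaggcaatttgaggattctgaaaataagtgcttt
Abcb11 (chr2:69342617-69342866): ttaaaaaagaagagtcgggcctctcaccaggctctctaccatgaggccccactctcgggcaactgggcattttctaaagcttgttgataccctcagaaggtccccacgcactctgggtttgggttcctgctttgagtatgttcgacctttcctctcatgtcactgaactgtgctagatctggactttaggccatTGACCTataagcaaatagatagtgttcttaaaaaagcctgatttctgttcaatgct
The Slco1a1 stretch holds the half-site letters at 134 and 24 bases before the start, counted to the first base of the match. The Abcb11 stretch holds them once, at 56 bases before the start, and the Slco1a4 stretch holds none. RefSeq promoter entries matched 8 of the 10 genes, Slc10a1 and Abcc4 with 2 entries each, and 5 of these 8 genes had a match on either strand in at least 1 entry. Counted by stretch, 5 of the 10 stretches of these genes hold these letters, against 4607 (14%) of all 32851 RefSeq promoter stretches of the same length. Reads could be split between paralogs. Of the 50-base words in the longest coding transcript, 2.26% in Slco1a1 and 2.73% in Slco1a4 also occur in another gene (most often Slco1a4 and Slco1a5), 3.42% in Abcb4 (most often Abcb1a) and 0.00% in Slc10a1, Slco1b2, Abcb11, Abcc3 and Abcc4. The counts of Slco1a1, Slco1a4 and Abcb4 are uncertain in those stretches.

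**Figure D1:**
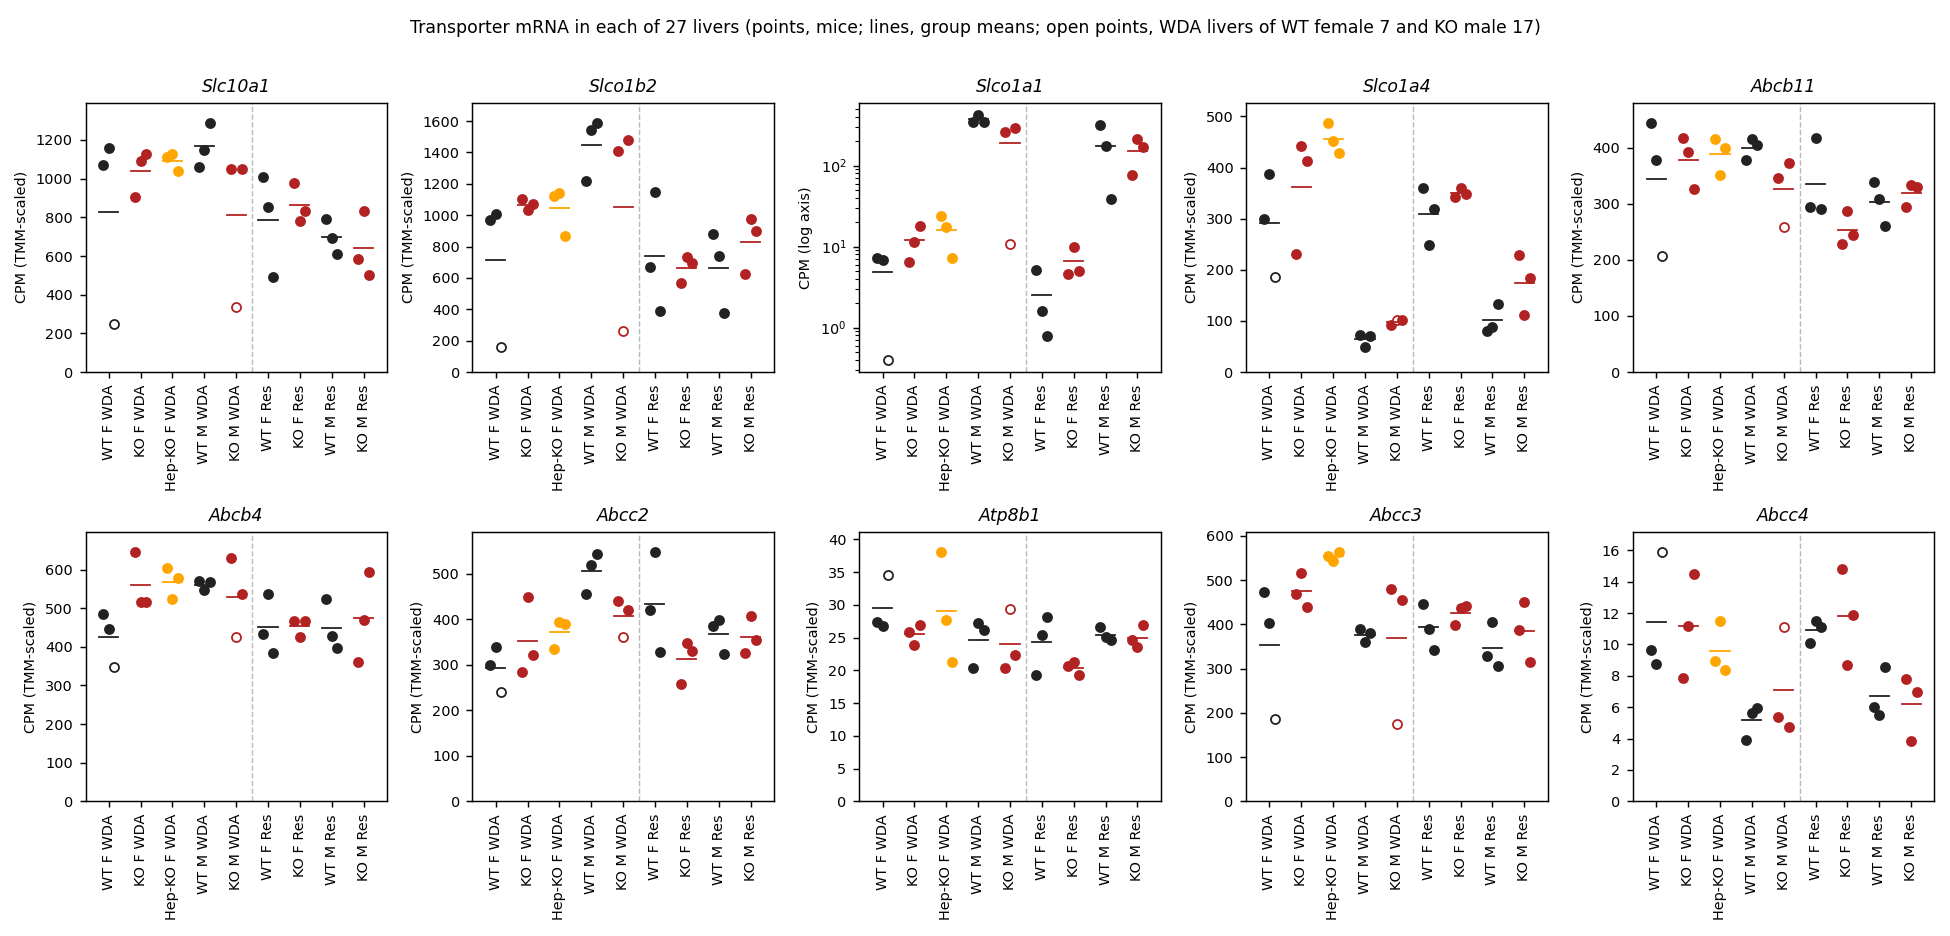
CPM of each gene (vertical axes, from 0 except for Slco1a1, which is on a log axis) in each mouse of the 9 groups (horizontal axes), with lines for group means and a dashed line between WDA and Res. Open points are WT female 7 and KO male 17 on WDA, which lie below their groupmates for Slc10a1, Slco1b2, Slco1a1 and Abcc3 and above them for Abcc4. By less, they also lie below them for Abcb11, Abcb4 and Abcc2 and above them for Atp8b1.

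On the FPKM scale, Slc10a1 was the most abundant of the 10 mRNAs, with a median level of 646 over the 27 livers. Slco1b2 followed at 295, Abcb4 at 131, Abcc3 at 88.8, Slco1a4 at 75.1, Abcb11 at 71.3 and Abcc2 at 70.5. Slco1a1, Atp8b1 and Abcc4 had much lower medians over all livers, at 4.6, 4.09 and 1.63 FPKM. The Slco1a1 median mixes the sexes, since its mean on WDA was 88 FPKM in WT males and 1.29 FPKM in WT females. The neighbours from Abcc3 to Abcc2 in this order lie closer than their spread over livers. The genes differed widely in how much they varied. In CPM, the highest liver exceeded the lowest 1060-fold for Slco1a1, 9.94-fold for Slco1a4, 9.86-fold for Slco1b2 and 5.18-fold for Slc10a1, the 4 uptake genes. The 4 genes of the canalicular face varied 2.28-fold (Abcc2), 2.15-fold (Abcb11), 1.97-fold (Atp8b1) and 1.86-fold (Abcb4). Abcc3 and Abcc4, which export to blood, varied 3.24-fold and 4.12-fold. WT female 7 on WDA was the lowest liver for Slco1a1, Slco1b2 and Slc10a1, and without it their ranges were 533-fold, 6.09-fold and 3.85-fold.

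Sex gave the largest differences among the 10 genes. Slco1a1, an OATP that takes up steroid sulfates and bile acids, was far higher in males, while Slco1a4, its close relative, and Abcc4 were higher in females. In WT mice on WDA, Slco1a1 stood at 342, 423 and 350 CPM in males 19, 20 and 21 and at 7.25, 6.8 and 0.4 CPM in females 5, 6 and 7. In WT mice after resolution, it stood at 313, 177 and 38.4 CPM in males 7, 8 and 9 and at 5.18, 1.62 and 0.793 CPM in females 1, 12 and 13. The lowest WT male was thus above the highest WT female at each stage. The low value in female 7 rests on 9 counts, and all other livers had at least 10. KO males had 261, 10.8 and 294 CPM on WDA (males 16, 17 and 18) and 77.3, 211 and 171 CPM after resolution (males 5, 6 and 11). KO females had 6.49, 11.4 and 18.1 CPM on WDA (females 1, 2 and 3) and 4.63, 10 and 5.06 CPM after resolution (females 2, 3 and 4). HepKO females 13, 14 and 15 had 23.7, 17.7 and 7.32 CPM, so that the highest female value of all was in this group.

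Male 17 was the only male below any female, and 11 of 12 males lay above all 12 WT and KO females. The log2 fold change of Slco1a1 in males against females was 6.29 (SE 0.91, adjusted p = 0.0394) in WT mice on WDA and 6.13 (SE 0.96, adjusted p = 0.0467) in WT mice after resolution. Over the 24 WT and KO mice it was 5.24 (SE 0.53, adjusted p = 1.28e-06), a 37.7-fold difference. Without the 2 livers with the most cholangiocyte transcripts it was 5.24 with an adjusted p of 9.04e-09, and all 11 remaining males lay above all 11 remaining females. In WT mice after resolution, without WT female 13 and WT male 9, it was 6.17 (adjusted p = 0.00318).

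Slco1a4 ran the other way. In WT mice on WDA, females 5, 6 and 7 had 300, 388 and 185 CPM and males 19, 20 and 21 had 71.9, 49.1 and 70.6 CPM. In WT mice after resolution, females 1, 12 and 13 had 360, 248 and 318 CPM and males 7, 8 and 9 had 79.6, 89.0 and 134 CPM. The sexes did not overlap at either stage in WT mice. KO females ranged from 231 to 443 CPM on WDA and from 343 to 361 after resolution, while KO males ranged from 93.0 to 102 on WDA and from 111 to 229 after resolution. Of the 12 males, 11 lay below all females, and KO male 5 after resolution, at 229 CPM, lay above WT female 7. Male 5 is also 1 of the 5 livers with raised cholangiocyte transcripts. The log2 fold change in males against females was -2.19 (SE 0.30, adjusted p = 0.0359) in WT mice on WDA, -1.62 (SE 0.24, adjusted p = 0.0389) in WT mice after resolution and -1.67 (SE 0.15, adjusted p = 2e-07) over the 24 mice. Without the 5 livers it was -1.86 (adjusted p = 0.0099) in WT mice after resolution and -1.85 (adjusted p = 2.59e-08) over the remaining WT and KO mice.

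Abcc4, the basolateral pump MRP4, was scarce in every liver but higher in females. On WDA, WT females 5, 6 and 7 had 9.62, 8.75 and 15.9 CPM and WT males 19, 20 and 21 had 3.89, 5.63 and 5.95 CPM. After resolution, WT females 1, 12 and 13 had 10.1, 11.5 and 11.1 CPM and WT males 7, 8 and 9 had 6.04, 5.51 and 8.58 CPM. The sexes did not overlap in WT mice at either stage, with log2 fold changes of -1.16 (SE 0.29) and -0.71 (SE 0.21) that missed the adjusted threshold (adjusted p = 0.169 and 0.325). Over the 24 mice the log2 fold change was -0.86 (SE 0.17, adjusted p = 0.00189), and 10 of 12 males lay below all females. Male 17, with 11.1 CPM, and male 9, with 8.58 CPM, were the exceptions, and both carried raised cholangiocyte markers. Without the 5 livers the log2 fold change over the remaining mice was -0.99 (adjusted p = 0.000103).

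**Figure D2:**
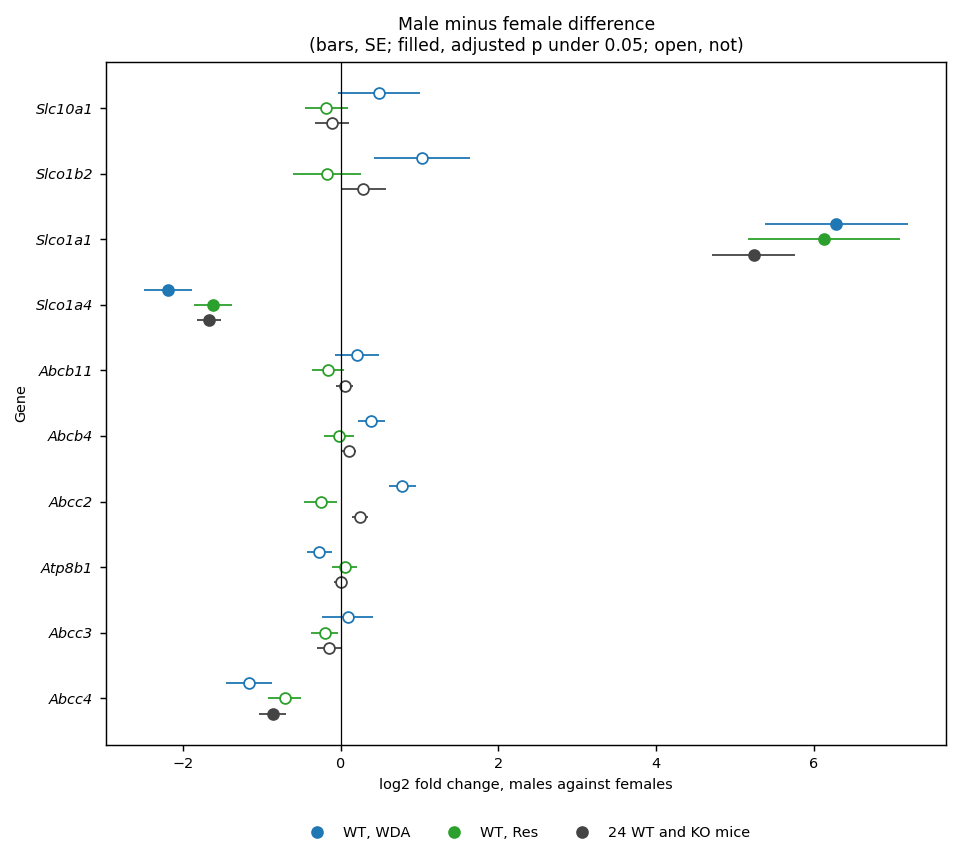
log2 fold change of males against females (horizontal axis, bars SE) for each gene (vertical axis) in WT mice on WDA, WT mice after resolution and the 24 WT and KO mice. Slco1a1 lies to the right (5.24 to 6.29) and Slco1a4 to the left (-2.19 to -1.62) in each comparison, and filled points passed an adjusted p of 0.05.

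Of the 10 genes, 2 passed the test in WT mice on WDA (Slco1a1 higher and Slco1a4 lower in males), where 0.851% of the 12333 genes tested were called. The same 2 genes passed in WT mice after resolution, where 0.545% of 12661 were called. With all 24 mice, 3 of 10 passed (1 higher, 2 lower), where 11.3% of 13519 were called. These calls in WT mice depended on single livers: leaving out any 1 liver kept the direction of Slco1a1 and Slco1a4 at both stages, but each stayed below the threshold only when WT female 7 (WDA) or WT male 9 (resolution) was the liver left out. In the fit of 24 mice, Slco1a1, Slco1a4 and Abcc4 stayed below it in all 24 such fits. Without female 7, 5 of the 10 genes passed in WT mice on WDA, where 8.35% of the 12406 genes then tested were called. Without female 13 and male 9, 2 of 10 passed in WT mice after resolution, where 1.45% of 12499 were called. In WT mice on WDA without female 7, Slco1b2, which takes up bilirubin and many drugs, had a log2 fold change of 0.56 (adjusted p = 0.0294). In that same WDA fit Abcc2 had 0.67 (adjusted p = 0.00737) and Abcc4 -0.83 (adjusted p = 0.0312).

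The other 7 genes did not pass between the sexes over the 24 mice. Their ranges overlapped when these mice were pooled, as those of Slco1a1, Slco1a4 and Abcc4 also did. In WT mice on WDA alone, however, 3 of them were higher in every male than in any female without passing the test. How many of all genes separated the groups in this way was not counted, here or in the other comparisons described as without overlap. Slco1b2 had 1220 to 1590 CPM in males and 162 to 1010 in females (log2 fold change 1.03, SE 0.61, adjusted p = 0.478). Abcb4 had 546 to 571 CPM in males and 348 to 486 in females (0.39, SE 0.17, adjusted p = 0.358). Abcc2 had 456 to 543 CPM in males and 240 to 340 in females (0.78, SE 0.17, adjusted p = 0.122). Among the 24 mice, Abcb11 ran from 207 to 445 CPM in females and from 259 to 416 in males, and Abcb4 from 348 to 646 in females and from 360 to 630 in males. Atp8b1 ran from 19.3 to 34.5 CPM in females and from 20.3 to 29.3 in males. Their log2 fold changes were 0.05 (SE 0.11), 0.10 (SE 0.10) and 0.00 (SE 0.08), none past the threshold. Slc10a1 differed by -0.11 (SE 0.21), Slco1b2 by 0.29 (SE 0.28, adjusted p = 0.583), Abcc2 by 0.25 (SE 0.10, adjusted p = 0.119) and Abcc3 by -0.15 (SE 0.15). Of these, Slco1b2 passed without the 5 livers with raised cholangiocyte markers (0.33, adjusted p = 0.0205), where 20.1% of 13131 genes were called.

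The comparison of resolution with WDA asks how the livers differed 4 weeks after alcohol ended. Slc10a1 had a lower mean after resolution in all 4 pairs of groups and Slco1b2 in 3 of the 4, and both genes passed the test in WT males. Slc10a1 stood at 1060, 1150 and 1290 CPM in WT males 19, 20 and 21 on WDA and at 791, 694 and 610 CPM in WT males 7, 8 and 9 after resolution. The groups did not overlap, and the log2 fold change was -0.72 (SE 0.13, adjusted p = 0.0163). Slco1b2 stood at 1220, 1540 and 1590 CPM on WDA and at 877, 738 and 377 CPM after resolution, again without overlap, with a log2 fold change of -1.12 (SE 0.27, adjusted p = 0.0386). Abcc2, which exports bilirubin conjugates into bile, stood at 456, 520 and 543 CPM on WDA and at 384, 398 and 323 CPM after resolution, and differed by -0.44 on the log2 scale (SE 0.11, adjusted p = 0.0442).

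In WT males, 3 of 10 genes therefore fell and 0 rose, where 11.0% of the 12408 genes tested were called. The median log2 fold change of the 10 genes was -0.34. Male 9 was among the 5 livers with raised cholangiocyte markers. Without it, Slc10a1 (-0.63, adjusted p = 0.0114) and Slco1b2 (-0.83, adjusted p = 0.00657) remained past the threshold and Abcc2 (-0.35, adjusted p = 0.0599) did not, and 13.5% of 12490 genes were called. Abcc2 passed in 0 of the 6 fits that left out 1 liver, Slc10a1 in 3 and Slco1b2 in 2. Abcb11 (-0.38, SE 0.11, adjusted p = 0.0624) and Abcb4 (-0.30, SE 0.12, adjusted p = 0.13) were also lower in every Res male than in any WDA male, but did not pass. Slco1a1 was likewise lower without overlap, at 38.4 to 313 CPM after resolution against 342 to 423 on WDA (-1.07, SE 0.57, adjusted p = 0.242), and its difference was -0.58 (adjusted p = 0.0938) without male 9. Slco1a4 went the other way, from 49.1 to 71.9 CPM on WDA to 79.6 to 134 CPM after resolution, without overlap (log2 fold change 0.68, SE 0.23, adjusted p = 0.085), and differed by 0.42 (adjusted p = 0.0989) without male 9.

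In KO females, 2 of 10 genes fell and 0 rose, where 20.4% of the 12470 genes tested were called. None of the 5 livers was in this comparison, and its cholangiocyte marker sums ran from 16.7 to 21.4 CPM on WDA and from 19.7 to 28.3 after resolution. Of the other marker lists, 3 of 8 macrophage markers and 3 of 8 hepatocyte markers were higher after resolution (median log2 fold changes of 0.57 and 0.40 over each list), and their part in these results was not tested. Slco1b2 stood at 1100, 1030 and 1070 CPM in females 1, 2 and 3 on WDA and at 565, 734 and 692 CPM in females 2, 3 and 4 after resolution. Abcb11, which sets the rate of bile salt secretion, stood at 417, 392 and 326 CPM on WDA and at 229, 288 and 245 CPM after resolution. Neither gene overlapped between the stages. The log2 fold changes were -0.69 (SE 0.13, adjusted p = 0.00673) for Slco1b2 and -0.58 (SE 0.14, adjusted p = 0.0182) for Abcb11. Slco1b2 passed in each of the 6 fits that left out 1 liver and Abcb11 in 4. Atp8b1 ranged from 23.8 to 27 CPM on WDA and from 19.3 to 21.2 after resolution, without overlap but short of the threshold (log2 fold change -0.32, SE 0.11, adjusted p = 0.0689). Abcb4 likewise ranged from 515 to 646 CPM on WDA and from 425 to 468 after resolution (-0.30, SE 0.12, adjusted p = 0.112).

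In WT females and KO males no gene of the 10 passed, and 0 of the 12603 and 12747 genes tested were called by edgeR. DESeq2 called 387 and 79 genes, none of them among the 10, and limma on FPKM called 0. At an unadjusted p under 0.05, 0 of 10 passed in WT females, where 13.6% of all genes did. In KO males 1 of 10 passed, where 6.43% of all genes did, and that gene was Slco1a4 (0.84, SE 0.27, adjusted p = 0.671), with 93.0 to 102 CPM on WDA and 111 to 229 after resolution. Without males 17 and 5 its difference was 0.61 (adjusted p = 0.556). Each of these comparisons held 2 of the livers with raised cholangiocyte markers. In WT females, Slc10a1 had a log2 fold change of -0.07 (SE 0.56) with all mice, and -0.25 (adjusted p = 0.411) without females 7 and 13. In KO males, it was -0.33 (SE 0.45) with all mice and -0.65 (adjusted p = 0.546) without males 17 and 5. For Slco1b2 the same values were 0.06 (SE 0.69) and -0.11 in WT females, and -0.33 (SE 0.59) and -0.62 in KO males. Removing the livers thus moved all 4 values downwards, and none passed.

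**Figure D3:**
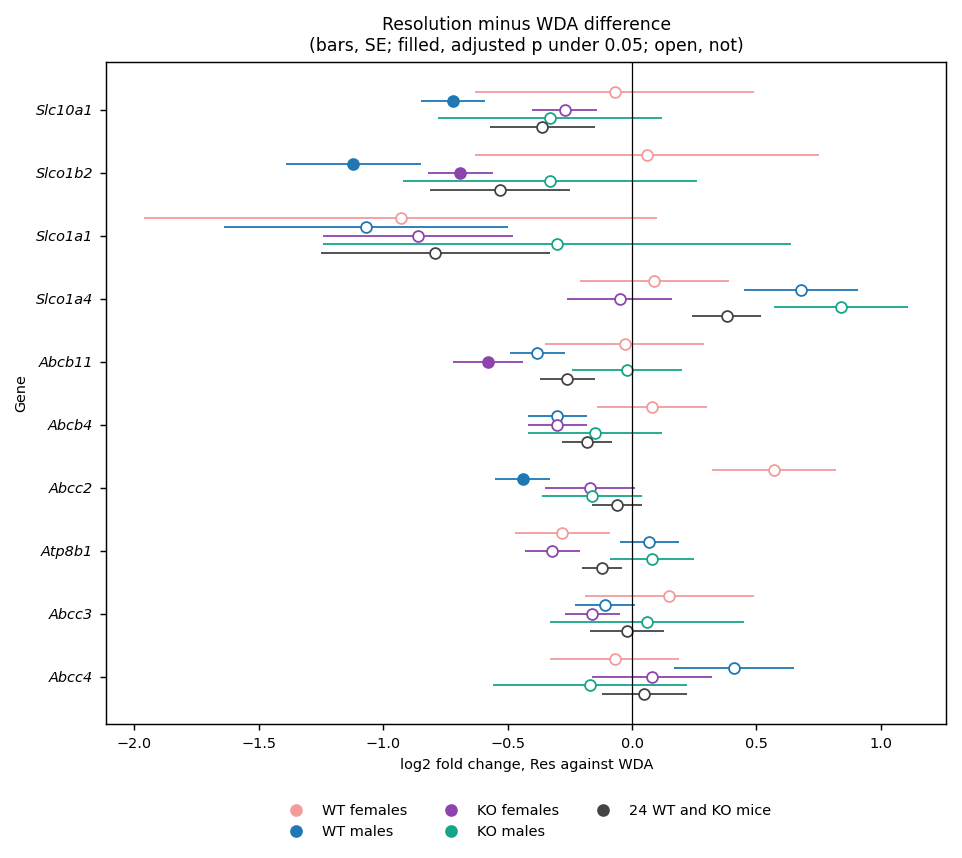
log2 fold change of resolution against WDA (horizontal axis, bars SE) for each gene (vertical axis) in 4 pairs of groups and over the 24 WT and KO mice. Filled points, which passed an adjusted p of 0.05, are Slc10a1, Slco1b2 and Abcc2 in WT males and Slco1b2 and Abcb11 in KO females, all to the left of 0.

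Over the 24 mice, 0 of 10 genes passed for resolution against WDA, although 29.8% of the 13519 genes tested were called. At an unadjusted p under 0.05, where 40.7% of all genes passed, 2 of the 10 did, Slco1a4 (log2 fold change 0.38, SE 0.14, adjusted p = 0.0518) and Abcb11 (-0.26, SE 0.11, adjusted p = 0.0781). Slc10a1 averaged 747 CPM after resolution and 961 on WDA (log2 fold change -0.36, SE 0.21, adjusted p = 0.221), and Slco1b2 724 and 1070 (-0.53, SE 0.28, adjusted p = 0.167). The result for the uptake genes turned on WT female 7 and KO male 17, both on WDA. Without these 2 livers 5 of 10 genes fell: Slc10a1 (-0.55, adjusted p = 0.000728), Slco1a1 (-1.07, adjusted p = 0.011), Slco1b2 (-0.75, adjusted p = 0.00111), Abcb11 (-0.36, adjusted p = 0.00174) and Abcb4 (-0.23, adjusted p = 0.0382). In that fit 43.9% of the 13515 genes tested were called. Without all 5 livers 4 fell: Slc10a1 (-0.46, adjusted p = 0.0011), Slco1a1 (-0.77, adjusted p = 0.00805), Slco1b2 (-0.57, adjusted p = 0.000303) and Abcb11 (-0.30, adjusted p = 0.00667), where 38.2% of 13131 genes were called. The share of the 10 genes called was thus near that of all genes in both fits. Abcc3 and Abcc4, the exporters to blood, had differences of -0.02 (SE 0.15) and 0.05 (SE 0.17) with all 24 mice.

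Whether the stage difference itself differed between the sexes was tested over the 24 mice. None of the 10 genes passed, and 0.118% of the 13519 genes tested were called. The interaction estimates with an unadjusted p under 0.05, which 7.07% of all genes had, were 3 of the 10, those of Slco1a4 (0.72, SE 0.29, adjusted p = 0.556), Abcc2 (-0.51, SE 0.20, adjusted p = 0.52) and Atp8b1 (0.36, SE 0.15, adjusted p = 0.598). For Slc10a1 the interaction was -0.37 (SE 0.43, adjusted p = 1), so that a difference between the sexes in its stage effect was not shown. Without the 5 livers, 0 of 10 passed, where 1.42% of 13131 genes were called, and the interaction estimates were 0.61 for Slco1a4 (adjusted p = 0.324), -0.49 for Abcc2 (adjusted p = 0.251), 0.46 for Atp8b1 (adjusted p = 0.149) and -0.39 for Slc10a1 (adjusted p = 0.389).

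No gene of the 10 passed in any comparison of a Cre vector with the control vector. In WDA females 0 of the 12397 genes tested were called for KO against WT, in WDA males 0 of 12419, in Res females 0 of 12577, in Res males 0 of 12620, and for HepKO against WT 0 of 12413. At an unadjusted p under 0.05, 0 of 10 genes passed in WDA females, where 3.11% of all genes did, and 1 of 10 in WDA males, where 7.71% did. In Res females 2 of 10 passed, where 19.2% of all genes did, in Res males 1 of 10, where 1.45% did, and for HepKO 1 of 10, where 10.1% did. The DESeq2 Wald test called 8, 17, 615, 7 and 222 genes in these 5 comparisons in turn, and none of the 10, and limma on FPKM called 0 in each. Without the 2 or the 5 livers, 0 of 10 genes again passed in each of the 5 comparisons. No gene of any kind was called in the 4 comparisons of KO with WT, but 2.80% of 12471 genes were called for HepKO against WT without WT female 7. For HepKO against KO females, 0 of 10 were called, where 0.0162% of 12351 genes were. For KO against WT over the 24 mice, 0 of 10 were called, where 0.0148% of 13519 genes were.

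Slco1a4 had a higher mean in each Cre group than in its control group, the KO and HepKO females on WDA sharing the same 3 controls. KO males on WDA, at 93.0, 101 and 102 CPM, were all above the WT males, at 49.1 to 71.9 CPM (log2 fold change 0.64, SE 0.16, adjusted p = 0.588, and 0.61, adjusted p = 0.34, without KO male 17). KO males after resolution, at 111 to 229 CPM, overlapped WT males at 79.6 to 134 CPM (0.81, SE 0.29, adjusted p = 1, and 0.82, adjusted p = 1, without males 5 and 9). HepKO females, at 488, 451 and 429 CPM, were all above the WT females, at 185 to 388 CPM (0.65, SE 0.26, adjusted p = 0.492, and 0.41, adjusted p = 0.119, without WT female 7). KO females differed from WT females by 0.30 (SE 0.34) on WDA and by 0.08 (adjusted p = 0.973) without female 7. After resolution they differed by 0.14 (SE 0.16), and by 0.18 (adjusted p = 0.599) without WT female 13. Over the 24 mice the difference was 0.48 (SE 0.14, unadjusted p = 0.00345, adjusted p = 0.206), and without the 2 livers with the most cholangiocyte transcripts it was 0.41 (adjusted p = 0.221), and without the 5 it was 0.42 (adjusted p = 0.201). None of these passed.

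The uptake genes of the WDA females show how far a single liver carried a mean. Slc10a1 averaged 1040 CPM in KO and 826 in WT females (log2 fold change 0.32, SE 0.50), and Slco1b2 1070 and 711 (0.58, SE 0.58). Without WT female 7 the same log2 fold changes were -0.10 (adjusted p = 0.914) and 0.12 (adjusted p = 0.858). In WDA males, KO against WT was -0.51 (SE 0.41) for Slc10a1 and -0.46 (SE 0.57) for Slco1b2 with KO male 17, and -0.14 and 0.00 without it. Among the export genes, Abcb11 and Abcc2 in Res females had the lowest p values, with log2 fold changes of -0.44 (SE 0.18, adjusted p = 0.247) and -0.52 (SE 0.21, adjusted p = 0.242). Abcb11 stood at 229, 288 and 245 CPM in KO and at 295, 418 and 291 CPM and at 295, 418 and 291 CPM in WT females after resolution, without overlap. Without WT female 13 the 2 differences were -0.52 (adjusted p = 0.223) for Abcb11 and -0.67 (adjusted p = 0.165) for Abcc2. Abcc3 reached its highest level in HepKO females, at 554, 544 and 564 CPM, above every WT (187 to 474) and KO (439 to 517) female on WDA, but neither difference passed (0.64, SE 0.32, adjusted p = 0.552 against WT, and 0.22, SE 0.10, adjusted p = 0.866 against KO). Without WT female 7 the difference of Abcc3 from WT was 0.34 (adjusted p = 0.111).

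**Figure D4:**
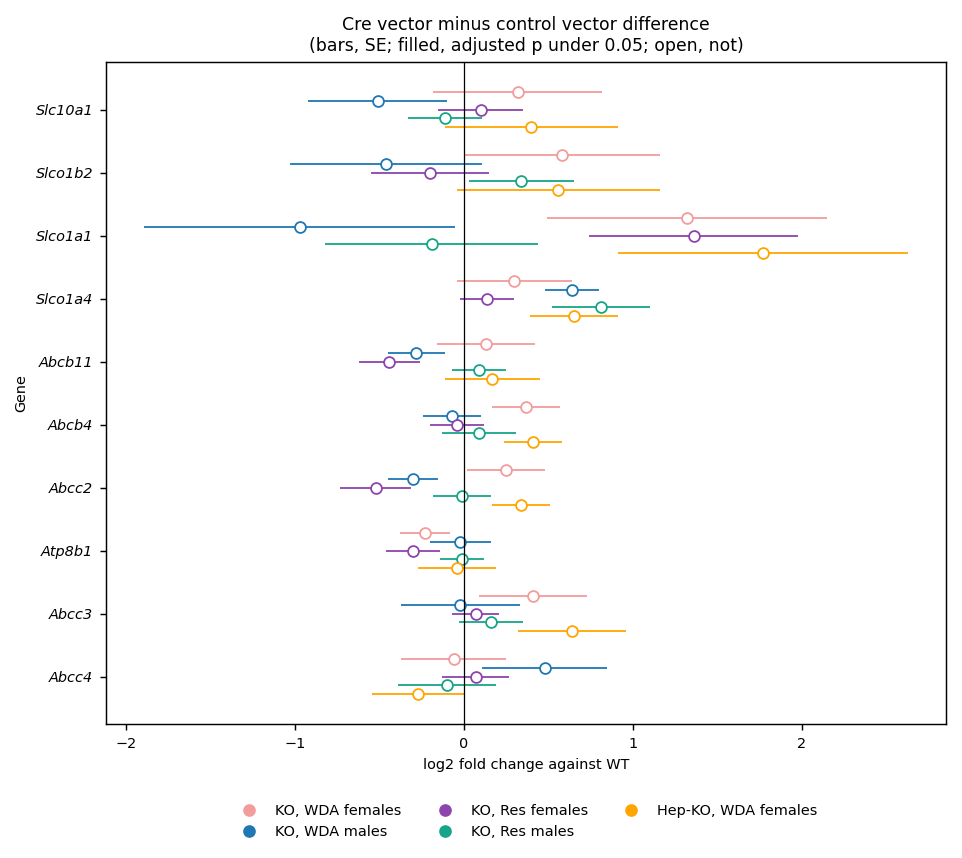
log2 fold change of KO or HepKO against WT (horizontal axis, bars SE) for each gene (vertical axis) in 5 pairs of groups. All points are open, since none passed an adjusted p of 0.05, and Slco1a4 lies to the right of 0 in all 5.

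The effect of Cre was also compared between stages and between sexes. For vector by stage, 0 of 10 genes and 0 of 13519 passed, and 0 of 10 against 3.20% of all genes had an unadjusted p under 0.05. For vector by sex, 0 of 10 and 0 of 13519 passed, and 1 of 10 against 17.4% of all genes had an unadjusted p under 0.05. DESeq2 called 0 genes for vector by stage and 156 for vector by sex, none among the 10. The gene with the low p was Slco1a1 (-1.96, SE 0.93, adjusted p = 0.283), which was lower in KO than in WT males on WDA (189 against 372 CPM) and higher in KO than in WT females (12.0 against 4.81 CPM). The interaction averages both stages. After resolution the KO and WT means were 153 and 176 CPM in males and 6.58 and 2.53 CPM in females. Without KO male 17 the log2 fold change of Slco1a1 for KO against WT was -0.42 (adjusted p = 0.37) in WDA males, and without WT female 7 it was 0.77 (adjusted p = 0.787) in WDA females. The interaction was -1.39 (adjusted p = 0.491) without these 2 livers and -1.23 (adjusted p = 0.388) without the 5.

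The 5 livers with raised cholangiocyte markers shared a pattern across the transporters, described here beside their groupmates and without a test. Slc10a1 was at 250 CPM in WT female 7, against 1070 and 1160 in females 5 and 6, and at 335 CPM in KO male 17, against 1050 in both males 16 and 18. Slco1b2 was at 162 CPM in female 7, against 967 and 1010, and at 261 CPM in male 17, against 1410 and 1480. Slco1a1 was at 0.4 CPM in female 7, against 7.25 and 6.8, and at 10.8 CPM in male 17, against 261 and 294. The mean of the other 2 mice was thus 4.46 and 3.13 times that of the liver itself for Slc10a1, 6.1 and 5.54 times for Slco1b2, and 17.6 and 25.7 times for Slco1a1. Over all 5 livers, Slco1a1 and Slco1b2 were below both groupmates in 5 and Slc10a1 in 4. By CPM, Abcb11, Abcb4 and Abcc2 were also below both in 5 and Abcc3 in 4, so this tally was not particular to the uptake genes. The share of all genes below both groupmates was not counted.

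Slco1a4 did not share the lower levels in most of these livers, with 1 of the 5 below both groupmates, 2 between them and 2 above. The 1 below was WT female 7, at 185 CPM against 300 and 388, a ratio of 0.538 to the groupmates' mean (0.754 by FPKM). In WT female 7 and KO male 17, the canalicular genes were closer to the groupmates than Slc10a1, Slco1b2 and Slco1a1, and depended on scaling. As a ratio to the mean of the groupmates, Abcb11 was 0.502 and 0.719 in female 7 and male 17 by CPM but 0.689 and 1.05 by FPKM, which has no TMM scaling. Abcb4 was 0.747 and 0.729 by CPM but 1 and 1.06 by FPKM, and Abcc2 was 0.751 and 0.841 by CPM but 1.04 and 1.22 by FPKM. Slc10a1, at 0.311 and 0.465 by FPKM, and Slco1b2, at 0.226 and 0.262, were low on both scales. Abcc3 was at 187 CPM in female 7, against 474 and 402, and at 174 CPM in male 17, against 479 and 455, and at 0.59 and 0.54 of the groupmates by FPKM. Abcc4 was at 15.9 CPM in female 7, against 9.62 and 8.75, and at 11.1 CPM in male 17, against 5.4 and 4.74, and was above both groupmates in 4 of the 5 livers. Atp8b1 was above both groupmates in 3 of the 5. The part of bile duct or stellate cell RNA in these levels was not tested.

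**Figure D5:**
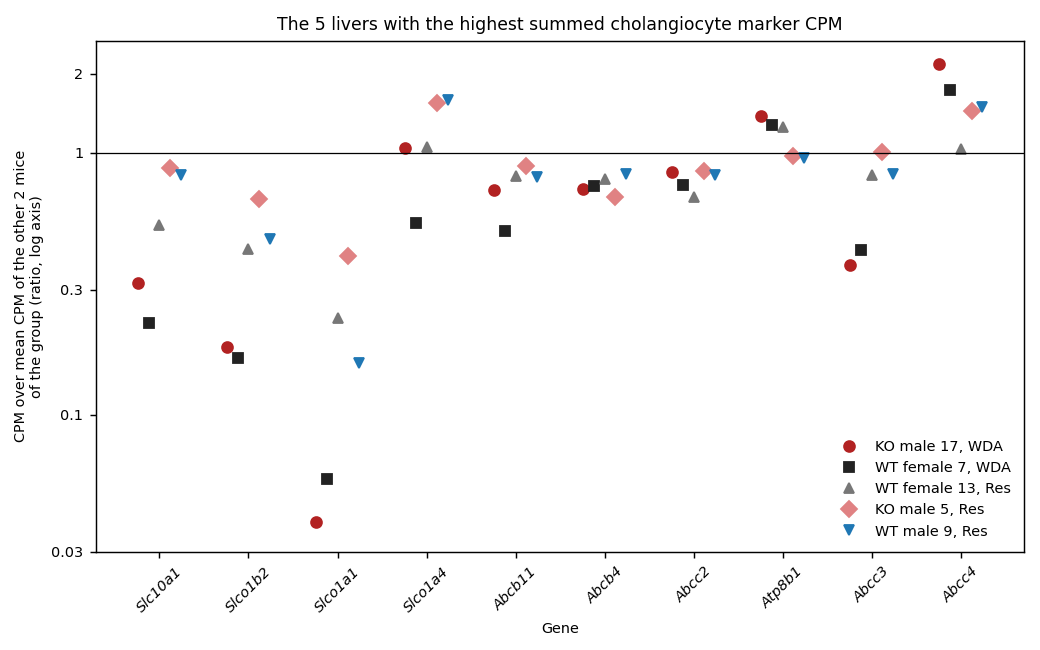
CPM of each gene (horizontal axis) in the 5 livers with the highest summed cholangiocyte marker CPM, divided by the mean of the other 2 mice of the same group (vertical axis, log scale, 1 marked by a line). Slco1a1 and Slco1b2 lie below 1 in all 5 livers and Abcc4 above 1 in all 5, while Abcb11, Abcb4 and Abcc2, below 1 here, lie at or above 1 by FPKM in some of them.

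Other genes of the same system were taken from lists written for this comparison. Of 18 other hepatic transporters, 15 were tested over the 24 mice. After resolution, 3 of them rose and 5 fell, where 29.8% of all genes were called. Abcg5 (log2 fold change -1.69, SE 0.17, adjusted p = 2.11e-06) and Abcg8 (-1.30, SE 0.16, adjusted p = 1.62e-05), the pair that exports cholesterol into bile, and Slc22a7 (-1.67, SE 0.35, adjusted p = 0.00154), an organic anion uptake carrier, fell. Slc10a2 (1.65, SE 0.31, adjusted p = 0.00068), the sodium-dependent bile acid carrier of ileum and bile duct, rose. In WT males 5 of 14 fell and 0 rose, where 11.0% of all genes were called, and in KO females 4 of 14 fell and 3 rose, where 20.4% were. Slc22a7 (1.55, SE 0.35, adjusted p = 0.00658) was among 2 that were higher in males over the 24 mice, and Abcb1a (-1.23, SE 0.30, adjusted p = 0.0101) among 3 that were lower, where 11.3% of all genes were called. In KO against WT over the 24 mice, 0 of 15 passed.

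Of 8 genes for scaffold partners and bile acid conjugation, 7 were tested. The shares of all genes called, 29.8% for resolution against WDA and 11.3% between the sexes over the 24 mice, and 20.4% in KO females, also stand behind the counts that follow. After resolution over the 24 mice, 0 rose and 2 fell, Pdzk1 (-0.74, SE 0.15, adjusted p = 0.00117) and Slc9a3r1 (-0.35, SE 0.11, adjusted p = 0.0255), whose PDZ proteins anchor transporters at the membrane. Between the sexes 1 passed, Baat (0.46, SE 0.13, adjusted p = 0.0206), which conjugates bile acids and was higher in males. Of 15 regulators, 1 rose after resolution, Cux2 (2.85, SE 0.41, adjusted p = 6.61e-05), and 1 fell, Nfe2l2 (-0.68, SE 0.15, adjusted p = 0.00244). Cux2, a repressor known to be female-biased in liver, was lower in males (-1.91, SE 0.41, adjusted p = 0.00452), as was Onecut1 (-0.78, SE 0.22, adjusted p = 0.0256), while Bcl6 (1.09, SE 0.35, adjusted p = 0.0471), a male-biased repressor, was higher. In KO females after resolution, Nr0b2 (-0.86, SE 0.24, adjusted p = 0.0301), which encodes the bile acid-induced repressor SHP, was among the 5 regulators that fell, and 1 rose. No regulator passed for KO against WT over the 24 mice.

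Genes whose levels over the 27 livers were ordered most like each transporter were found by Spearman's rho over log2 CPM, among 10992 genes and as a description. For Slco1a1 they were Ces3a, Elovl3 and Phyh (rho 0.94 each), and for Slco1a4 they were Cd36 (0.90), Cyp2b13 (0.90) and Klhl13 (0.89). For Slco1b2 they included Aqp9 (0.94) and Deptor (0.91), and for Slc10a1 Rab7 (0.91) and Timd2 (0.90). Abcb11 was nearest to Rnf141, Pbld2 and Rnf152 (0.86 each), Abcb4 to Sntb1 (0.86) and Abcc2 to Kank1 (0.84). Abcc3 was nearest to Pnldc1 (0.87), Abcc4 to Fam177a2 (0.85) and Atp8b1 to Septin2 (0.82). Within the 10, Slco1a1 and Abcc4 ran in opposite order (rho -0.81), as did Slco1a1 and Slco1a4 (-0.61). These orders mix the 2 sexes, the 2 stages and the 5 livers with raised cholangiocyte markers.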

How the data were processed

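RNA from whole liver of 27 mice was sequenced with 1 library per mouse. Per the labels and the paper, HISAT (on GRCm38.p6) and Bowtie2 (on genes) served for alignment. The deposited tables hold expected counts, which are estimated reads per gene without normalization, and FPKM values scaled by the authors or their service for length and depth. Between 6.33% and 8.43% of counts per library are not whole, and counts were rounded. Of 17655 genes, 1899 were missing from a table and were set to 0 there, and all 10 transporters were in every table and passed every filter.

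Groups came from the labels. Genes were filtered with filterByExpr (minimum count 10), scaled by TMM and compared with edgeR 4.0.16 (glmQLFit, glmQLFTest; R 4.3.3) and Benjamini-Hochberg adjustment over all genes tested, at 0.05. Single comparisons used their own 6 mice, and the contrasts over 24 WT and KO mice came from a model with a mean for each of 8 groups. P-values weigh a difference between groups against the spread between mice of a group, an estimate that draws in part on all genes. Each SE of a log2 fold change is its absolute value over the square root of the F statistic of the same test. Scripts were tested on simulated counts. The 10 genes and the lists were chosen with earlier results of these data known. All 10 are named, with up to 4 called genes of each other list per comparison and the 3 nearest genes by Spearman's rho (up to 3 printed) among those with a mean log2 CPM of at least 1. Some items are not reported here.

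Alternatives were RLE and upper quartile scaling, DESeq2 1.42.0, limma 3.58.1 on log2(FPKM + 0.1), other filters, a spread shared by all groups, leaving out each mouse, and a replicate block. Totals without factors, and leaving out the livers with the most cholangiocyte transcripts, were added after seeing the data.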

Additional observations from a re-analysis of the deposited data

How the results depend on the processing

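Across the settings tried, no call among the 10 genes turned its direction. For resolution against WDA in WT males, 3 genes were called, with 5 by DESeq2, 0 with a shared spread, and 0 (without WT WDA male 20) to 4 (without WT Res male 7) on leaving out 1 mouse, while calls over all genes ran from 106 to 1685 against 1361. In KO females 2 were called, with 0 under a shared spread, 4 with library totals and 1 to 3 on leaving out 1 mouse. The same 2-gene count came with mouse number as a replicate block (2), although numbers repeat between experiments and do not pair mice. Abcb11 then had an adjusted p of 0.116 and Slco1a1 one of 0.00582. For males against females in WT mice on WDA, 2 were called, with 4 by DESeq2, 1 with at least 10 counts in every library, 5 without the 2 or the 5 livers with the most cholangiocyte transcripts and 0 (without WT male 19) to 5 (without WT female 7) on leaving out 1 mouse. Slco1a1 was not tested there under the filter of 10 counts, since WT female 7 had 9. After resolution 2 were called, with 1 under the filter of 10 counts in every library and 0 to 2 on leaving out 1 mouse. Over the 24 mice, males against females gave 3 calls, and 3 to 4 on leaving out 1 mouse. Resolution against WDA over the 24 mice gave 0, with 1 by DESeq2, RLE, upper quartile scaling, library totals, a shared spread or 10 counts in every library, 2 by limma on FPKM, 5 and 4 without the 2 and the 5 livers, and 0 to 3 (without WT female 7) on leaving out 1 mouse. KO against WT in Res females gave 0, and 0 to 1 on leaving out 1 mouse (1 without WT female 1, when 852 genes were called in all). DESeq2 and limma on FPKM called none of the 10 in any Cre comparison. The cause of these shifts was not tested. As group means of the factors over 27 livers, TMM scaling moved log2 fold changes relative to library totals by -0.20 (KO against WT, WDA males) to 0.32 (males against females, WT on WDA). Counts limit Slco1a1 in females most, with 9 counts at the lowest, and 3 mice per group limit all tests.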
